A study of Mus musculus with 36 samples.

Results

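The 6 CXC chemokine genes Cxcl1, Cxcl2, Cxcl3, Cxcl5, Cxcl14 and Cxcl16 were followed through RNA sequencing of mouse bone marrow-derived macrophages (BMDMs), and were found by their gene names among the 54532 genes of the count table. All 6 passed the filter on low counts in each of the 12 comparisons. BMDMs were grown from female C57BL/6 mice aged 13 to 17 weeks, in medium with 20% serum and the growth factor MCSF for 7 days. Wild-type (WT) cells came from Bmal1 flox/flox littermates without Cre (3 libraries per treatment), and knockout (KO) cells from LysM-Cre;Bmal1 flox/flox mice (6 libraries per treatment). Both genotypes therefore carried floxed Bmal1 alleles, and only the KO carried Cre, driven by the LysM promoter of myeloid cells. Cells of each genotype received DMSO (vehicle), 100 µM CCM, 100 nM LPS, or both agents together (LPS+CCM) for 6 h, which gave 8 groups and 36 libraries. CCM, the core circadian modulator, is a small molecule that binds the PASB domain of the clock protein BMAL1, and LPS is the bacterial cell wall lipid that activates the receptor TLR4.

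CXC chemokines are small secreted proteins that direct leukocyte movement through CXC receptors. Cxcl1, Cxcl2, Cxcl3 and Cxcl5 carry the ELR (Glu-Leu-Arg) motif ahead of their cysteines, bind the receptor Cxcr2 and draw neutrophils into inflamed tissue, and macrophages make several of them when TLR4 signals through NF-kB. Cxcl14 is known as a homeostatic chemokine, made in tissues without inflammation. Cxcl16 is made as a membrane protein that can also take up oxidised lipoproteins, and its soluble form, released by the proteases Adam10 and Adam17, binds Cxcr6.

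The 4 ELR genes among the 6 members lay within 146.6 kb of chromosome 5 (mm10), on the plus strand, beside Ppbp, Pf4 and Cxcl15. Cxcl5 (ENSMUSG00000029371) occupied chr5:90759360-90761624 and Cxcl3 (ENSMUSG00000029379) chr5:90786103-90789600. Cxcl1 (ENSMUSG00000029380) followed at chr5:90891241-90893115, and Cxcl2 (ENSMUSG00000058427) at chr5:90903871-90905938. The other members lay alone on minus strands, Cxcl14 (ENSMUSG00000021508) at chr13:56288643-56296551 and Cxcl16 (ENSMUSG00000018920) at chr11:70453983-70459984. Only Cxcl16 overlapped another annotated gene, Zmynd15 on the opposite strand, and the strand setting of the counting was not given in the sources used here. Of the 50-base stretches in annotated Cxcl2 transcripts, 5.836% also occurred in Cxcl3, and reads from these cannot be told apart. Of the Cxcl3 stretches 4.238% occurred in other genes, Cxcl2 among them, and of the Cxcl5 stretches 0.693%. For Cxcl1, Cxcl14 and Cxcl16 the share found in any other gene was 0.0%.

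Promoter windows of RefSeq (GRCm38.p6), from 250 bases before to 50 bases after the start, were matched for 4 of the 6 members, Cxcl1, Cxcl2, Cxcl3 and Cxcl14. The 120 bases before each start are printed 5′ to 3′ on the gene's strand, since 3 of these genes rose strongly with LPS and the other fell. Capitals mark matches to the kappa-B motif, the site type bound by NF-kB, and in the short Cxcl3 stretch the E-box CACGTG, the site type bound by BMAL1 with CLOCK.
Cxcl1: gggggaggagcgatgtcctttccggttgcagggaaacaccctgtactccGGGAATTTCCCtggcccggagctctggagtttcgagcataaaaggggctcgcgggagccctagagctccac
Cxcl2: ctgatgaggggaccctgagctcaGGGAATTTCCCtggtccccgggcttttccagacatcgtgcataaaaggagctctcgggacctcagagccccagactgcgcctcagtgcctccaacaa
Cxcl3: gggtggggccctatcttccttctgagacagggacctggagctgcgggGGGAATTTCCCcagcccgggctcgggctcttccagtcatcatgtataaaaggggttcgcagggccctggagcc
Cxcl3 E-box: gaaccagtagcaCACGTGtgtcctctacac
Cxcl14: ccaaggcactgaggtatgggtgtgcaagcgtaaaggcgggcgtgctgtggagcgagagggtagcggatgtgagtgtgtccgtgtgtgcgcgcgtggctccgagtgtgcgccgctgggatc

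These stretches lay at chr5:90891125-90891244 (Cxcl1), chr5:90903779-90903898 (Cxcl2), chr5:90785981-90786100 (Cxcl3), chr5:90785934-90785963 (the Cxcl3 E-box) and chr13:56296552-56296671 on the minus strand (Cxcl14). Cxcl1, Cxcl2 and Cxcl3 each held the same run of letters, in which 2 kappa-B matches overlap. It began 71 bases before the RefSeq start in Cxcl1, 97 in Cxcl2 and 73 in Cxcl3. These distances depend on the start used. The printed stretch of Cxcl2 ends at base 90903898, inside the gene span given above, which begins at 90903871. That of Cxcl1 ends at 90891244, also inside its gene span, which begins at 90891241. Over these 120 bases the 3 promoters were 77.7% identical between Cxcl1 and Cxcl2, 76.9% between Cxcl1 and Cxcl3 and 76.1% between Cxcl2 and Cxcl3, over the positions that aligned without a gap. Of all 32851 promoter windows, 4.505% held a kappa-B match on either strand and 7.15% an E-box. The TATA letters TATAAA, found in 13.616% of windows, were matched in Cxcl3 only among the 4 windows. The AP-1 motif TGANTCA (7.808% of windows) and the C/EBP motif TTGCNNAA (10.797%) were matched in none of the 4. No kappa-B match or E-box was present in the Cxcl14 window, which says only that these letters are not in that stretch.

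**Figure D1:**
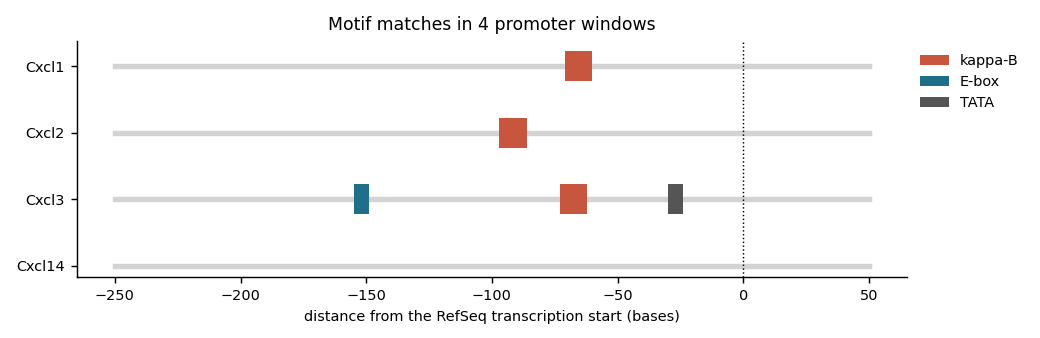
Positions of motif matches in the promoter windows of Cxcl1, Cxcl2, Cxcl3 and Cxcl14, as bases from the RefSeq transcription start (dotted line); grey lines are the windows and coloured blocks the matches on either strand. Cxcl1, Cxcl2 and Cxcl3 each have a kappa-B block less than 100 bases before the start, and Cxcl14 has no block.

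Library totals were 13469262 to 28288923 counted read pairs. Replicates of a group differed by more than counting noise in every pair (the lowest ratio of chi-square to its degrees of freedom was 4.08), and the labels do not say what a replicate is beyond its number, so p-values measure the spread between these libraries. KO replicate 6 stood apart from the other KO replicates. The biological coefficient of variation for LPS against vehicle was 0.304 in KO with it and 0.122 without it, against 0.106 in WT. CPM are counts scaled to the library total times its TMM scaling factor. Macrophage genes (7 of 7 above 1 CPM in every group) summed to 15814 to 19356 CPM in WT libraries. Sums were 16894 to 19982 CPM in the 4 libraries labelled KO replicate 2 and 11179 to 14478 CPM in the other KO libraries. Lyz2 had the largest level in this list, with a median of 9227 CPM, against 1943 CPM for Csf1r, the next. With vehicle the log2 fold change of KO against WT was -0.50 for Lyz2. It was between -0.06 and 0.06 for the other genes of the list, and no gene of the list passed (edgeR). The 10 neutrophil genes summed to 533 to 1327 CPM, with Ly6g at or below 0.562 CPM, and were highest in KO replicate 6 under LPS. The 8 fibroblast and stromal genes summed to 346 to 1849 CPM, and their part in the results was not tested. Counts over the whole Bmal1 gene do not measure the deletion of its exons, and they did not separate the genotypes: vehicle means were 8.71 ± 1.23 CPM in WT (SD, n = 3) and 6.70 ± 1.96 in KO (SD, n = 6), with a log2 fold change of -0.34 (edgeR quasi-likelihood test, adjusted p = 1).

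The 4 libraries labelled KO replicate 2 went against their label in 3 genes, which were chosen after values had been seen. LysM-Cre is inserted into Lyz2, the macrophage lysozyme gene, and Cry1 and Nr1d2 are clock genes under BMAL1 control. In KO replicates 1, 3, 4 and 5 Cry1 was higher and Nr1d2 lower than in WT. Without LPS, Lyz2 measured 12079 to 15185 CPM in WT, 13247 and 14354 CPM in KO replicate 2 and 7184 to 8779 CPM in KO replicates 1, 3, 4 and 5. Cry1 measured 7.18 to 8.88 CPM in WT, 6.51 and 8.16 CPM in KO replicate 2 and 29.8 to 37.9 CPM in those 4 KO replicates. Nr1d2 measured 45.6 to 53.1 CPM in WT, 51.9 and 53.4 CPM in KO replicate 2 and 18.6 to 23.3 CPM in the 4. In KO replicate 6, Cry1 (14.1 and 16.8 CPM) and Nr1d2 (6.34 and 8.29 CPM) matched neither set. With LPS the libraries of KO replicate 2 again lay outside the range of the 4 in each of the 3 genes, on the side of WT. KO below therefore means the libraries labelled KO, and each KO comparison was also fitted without KO replicate 2, without KO replicate 6 and without both.

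In vehicle-treated macrophages the homeostatic Cxcl14 and the membrane-bound Cxcl16 were the most abundant of the 6 transcripts. Levels were compared between genes per kilobase of the deposited gene length. This length was the whole gene span for Cxcl1 (1875 bases), Cxcl2 (2068) and Cxcl3 (3498). It was shorter than the span for Cxcl5 (1863), Cxcl14 (1827) and Cxcl16 (3021). Orders, ratios and shares between genes depend on these lengths. On this scale Cxcl14 measured 49.9 ± 7.42 CPM in WT and Cxcl16 48.5 ± 5.83 (SD, n = 3), and their ranges overlapped. Cxcl2 followed at 12.4 ± 2.28, below both and without overlap. Cxcl5 (0.766 ± 0.116) and Cxcl1 (0.618 ± 0.281) overlapped each other, and Cxcl3 was lowest at 0.142 ± 0.0965. Vehicle-treated KO cells held the same 3 tiers, with Cxcl16 (53.3 ± 12.7) and Cxcl14 (43.9 ± 8.08) on top and Cxcl2 (13.5 ± 5.63) next (SD, n = 6). The lowest tier rested on few reads, 9 to 130 read pairs per KO library for Cxcl3 and 20 to 80 for Cxcl1.

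LPS changed that order. In WT cells with LPS alone, Cxcl2 reached 1236 ± 114 CPM per kilobase (SD, n = 3), well above Cxcl3 (187 ± 52.2), Cxcl16 (181 ± 3.67) and Cxcl1 (178 ± 19.7), whose neighbours in this order overlapped. Cxcl14 (17.04 ± 2.79) and Cxcl5 (5.68 ± 1.07) came last, in that order and without overlap. The KO order under LPS again had Cxcl2 first at 1116 ± 144, then Cxcl16, Cxcl1 and Cxcl3 with overlapping ranges, then Cxcl14 and Cxcl5.

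**Figure D2:**
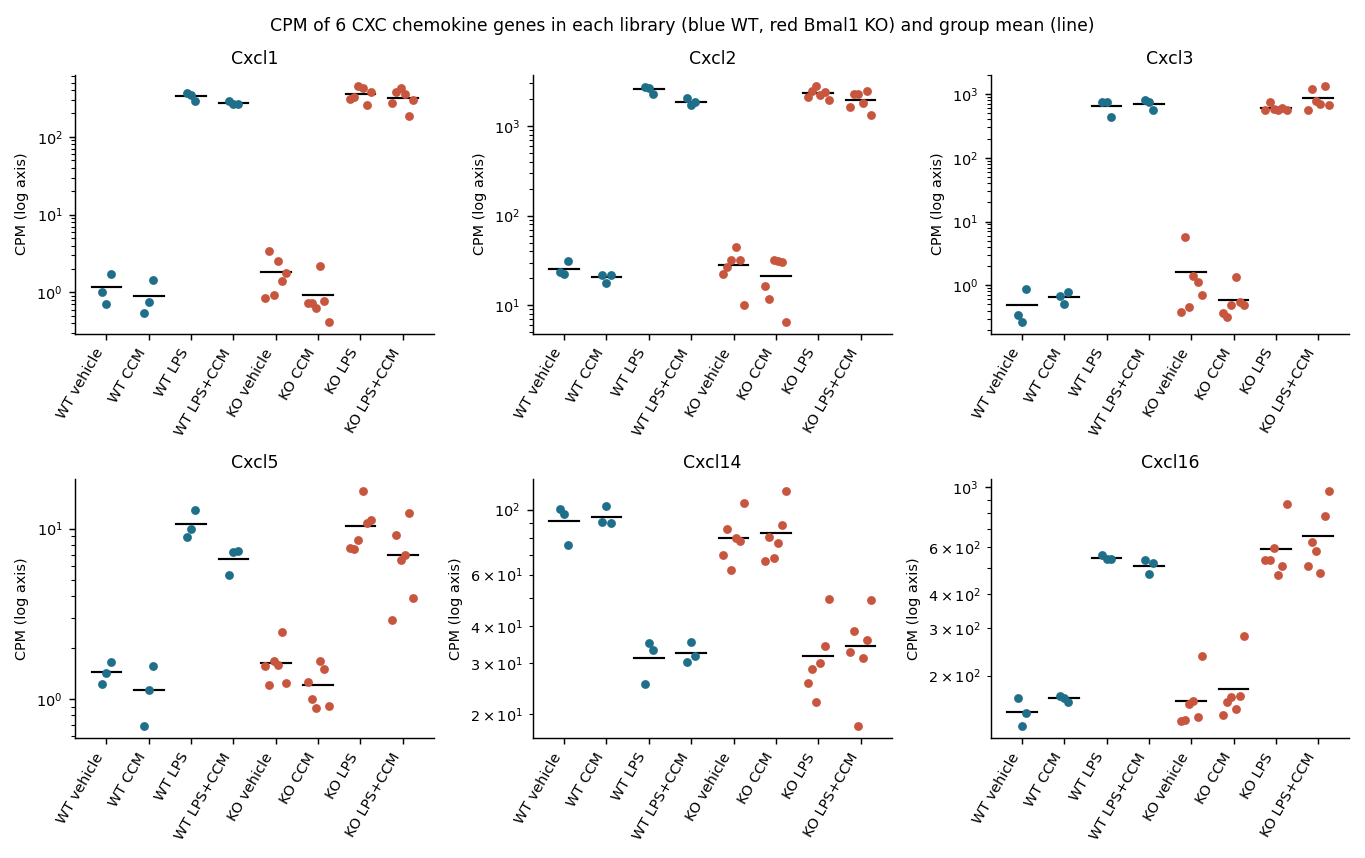
CPM (log axis) of each gene in each of the 36 libraries, by genotype and treatment; points are libraries (3 per WT group, 6 per KO group) and lines are group means. Cxcl1, Cxcl2, Cxcl3, Cxcl5 and Cxcl16 lie higher and Cxcl14 lower in every group with LPS than in any group without it.

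The comparison of LPS with vehicle asked how far TLR4 activation moved each chemokine. All 6 genes passed the test in WT, 5 higher and 1 lower, in a comparison where 63% of all tested genes passed (30.6% higher and 32.4% lower). In KO cells the same 6 passed in the same directions, against 47.1% of all genes (22.4% higher and 24.7% lower). All 6 also passed without KO replicate 2 (40% of all genes), without KO replicate 6 (69.4%) and without both (64.8%). For each of the 6 genes the LPS and vehicle libraries did not overlap in either genotype, which held for 69% of all tested genes in WT and 30.6% in KO. The median log2 fold change over all genes was -0.05 in both.

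Among the ELR chemokines, Cxcl2 carried the largest level. It measured 23.3, 22.4 and 31.0 CPM in the WT vehicle libraries and 2724, 2658 and 2286 CPM in the WT LPS libraries. Every LPS library lay far above every vehicle library. The log2 fold change was 6.66 (SE 0.149, a 101-fold rise, edgeR adjusted p = 1.65e-10). In KO cells Cxcl2 ran from 10.1 through a median of 29.2 to 45.04 CPM with vehicle and from 1925 through 2315 to 2766 CPM with LPS. The lowest library on both sides was KO replicate 6, and the groups stood far apart. The KO log2 fold change was 6.38 (SE 0.311, edgeR adjusted p = 2.42e-09), and 6.24 without KO replicate 6.

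Cxcl1, the mouse chemokine also named KC, went from almost undetected to abundant. Its WT vehicle libraries held 1.02, 0.7096 and 1.74 CPM and its WT LPS libraries 365, 344 and 293 CPM. Vehicle and LPS libraries were separated by a wide gap, at a log2 fold change of 8.13 (SE 0.194, 279-fold, edgeR adjusted p = 2.59e-10). In KO cells vehicle values ran from 0.839 through 1.59 to 3.39 CPM and LPS values from 261 through 353 to 447 CPM, a log2 fold change of 7.62 (SE 0.377, edgeR adjusted p = 2.78e-09).

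Cxcl3 showed the largest fold change of the 6 in each genotype, from the lowest start. WT vehicle libraries held 0.342, 0.266 and 0.885 CPM and WT LPS libraries 762, 757 and 443 CPM. Replicate 3 was at once the highest with vehicle and the lowest with LPS. The log2 fold change was 10.27 (SE 0.345, edgeR adjusted p = 2.94e-09), and between 10.04 and 11.07 when any single replicate was left out. In KO cells LPS values ran from 553 through 570 to 762 CPM, while vehicle values ran from 0.377 through 0.906 to 5.80 CPM. The 5.80 CPM came from KO replicate 2, whose LPS library was also the highest. The KO log2 fold change was 8.51 (SE 0.668, edgeR adjusted p = 2.24e-07), and 9.44 without replicate 2.

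Cxcl5, the remaining ELR member, stayed rare. Its WT vehicle libraries held 1.21, 1.42 and 1.65 CPM and its WT LPS libraries 8.98, 9.95 and 12.8 CPM. These groups did not overlap, at a log2 fold change of 2.91 (SE 0.204, edgeR adjusted p = 7.95e-07). In KO cells vehicle values ran from 1.204 through 1.56 to 2.46 CPM and LPS values from 7.60 through 9.64 to 16.7 CPM, a log2 fold change of 2.69 (SE 0.249, edgeR adjusted p = 1.12e-06).

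Cxcl16 rose from a level that was already high. WT vehicle libraries held 165, 130 and 145 CPM and WT LPS libraries 559, 540 and 540 CPM. The LPS libraries were tightly grouped and all lay above vehicle, with a log2 fold change of 1.93 (SE 0.0775, edgeR adjusted p = 1.08e-08). In KO cells vehicle values ran from 135 through 149 to 236 CPM and LPS values from 474 through 536 to 869 CPM, a log2 fold change of 1.87 (SE 0.207, edgeR adjusted p = 6.09e-06). KO replicate 6 held the highest Cxcl16 value in each of the 4 KO groups, and without it the log2 fold change was 1.86. Zmynd15, which overlaps Cxcl16 on the other strand, also measured more with LPS, 28.8 to 51.6 CPM against 9.54 to 15.9 CPM in the libraries without LPS, and its part in the Cxcl16 counts was not tested.

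Cxcl14 was the member that fell. WT vehicle libraries held 101, 96.9 and 75.6 CPM and WT LPS libraries 25.3, 34.9 and 33.1 CPM. All LPS libraries lay below all vehicle libraries, with a log2 fold change of -1.51 (SE 0.132, edgeR adjusted p = 4.32e-06). In KO cells values ran from 62.4 through 78.9 to 105 CPM with vehicle and from 22.1 through 29.3 to 49.5 CPM with LPS, where the log2 fold change was -1.33 (SE 0.213, edgeR adjusted p = 0.000167). In these bulk samples, fewer cells of a type and less RNA per cell cannot be told apart.

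CCM without LPS was compared with vehicle to ask whether the ligand moves basal expression. None of the 6 genes passed the edgeR test in WT (0 of 6, against 0.057% of all genes, 0.0499% higher and 0.00713% lower), with 2 at an unadjusted p under 0.05 and 0 by DESeq2. Cxcl2 was 1 of these 2, at 21.9, 17.9 and 21.8 CPM with CCM, each below all 3 vehicle libraries (log2 fold change -0.31, SE 0.138, edgeR adjusted p = 0.498). CPM ranges that did not overlap occurred for 15.4% of all tested genes. Cxcl16 was the other, at 168, 165 and 160 CPM, with a log2 fold change of 0.18 (95% interval 0.01 to 0.35, edgeR adjusted p = 0.468). Cxcl14 measured 90.7, 103 and 89.8 CPM, with an interval of -0.17 to 0.30. The low-count genes had wide intervals, -1.34 to 0.66 for Cxcl1, -0.72 to 1.45 for Cxcl3 and -1.09 to 0.42 for Cxcl5.

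In KO cells CCM alone also gave 0 of 6 with edgeR, against 0% of all genes, with 2 at an unadjusted p under 0.05 and 0 by DESeq2. Cxcl1 had a median of 0.731 CPM with CCM against 1.59 with vehicle and was lower in 6 of 6 same-numbered pairs (log2 fold change -0.99, 95% interval -1.96 to -0.03, edgeR adjusted p = 1). Its values overlapped, from 0.418 to 2.19 CPM with CCM, and ranges that did not overlap occurred for 0.42% of all genes. Cxcl3 had a log2 fold change of -1.46 (95% interval -2.90 to -0.01), which became -0.34 without KO replicate 2, the library with 5.80 CPM. Without that replicate Cxcl1 was at -0.66 (95% interval -1.72 to 0.40), and 0 of 6 had an unadjusted p under 0.05. Without KO replicate 6 instead, 0 of 6 passed by edgeR, against 1.01% of all genes, with 1 at an unadjusted p under 0.05. The other intervals were -1.26 to 0.45 for Cxcl2, -0.95 to 0.0911 for Cxcl5, -0.34 to 0.44 for Cxcl14 and -0.32 to 0.61 for Cxcl16.

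CCM under LPS was the comparison in which members moved with CCM. In WT cells 3 of 6 passed, Cxcl2, Cxcl1 and Cxcl5, all lower with CCM, against 11.9% of all tested genes in either direction, 7.78% lower and 4.15% higher. These 3 are ELR ligands of Cxcr2. The other ELR gene among the 6 members, Cxcl3, had an interval that spans no change, and so did Cxcl14 and Cxcl16. The comparison shares its LPS libraries with that of LPS against vehicle. Some cell type markers also moved here. The calcium-binding S100a9, a neutrophil marker, fell by 0.28 on the log2 scale as 1 of 8 tested neutrophil genes, and Pdgfrb fell by 0.21 as 1 of 7 stromal genes. Of 7 macrophage genes Fcgr1 (-0.31) and Mertk (-0.21) passed as lower and Csf1r (0.27) as higher (edgeR). Of 3 tested dendritic cell genes 0 passed by edgeR (2 had an unadjusted p under 0.05), and that list summed to 4.73 to 5.26 CPM with LPS and 2.57 to 3.13 CPM with LPS+CCM. The part of these cells in the results was not tested.

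Cxcl2 measured 2045, 1705 and 1842 CPM in the WT LPS+CCM libraries, against 2724, 2658 and 2286 CPM with LPS alone. Every LPS+CCM library lay below every LPS library, and ranges did not overlap for 30.1% of all tested genes in this comparison. The log2 fold change of Cxcl2 was -0.45 (SE 0.0795, a 1.36-fold drop, edgeR adjusted p = 0.00508). Cxcl2 passed when any single library was left out, with log2 fold changes from -0.53 to -0.39.

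Cxcl1 measured 288, 265 and 267 CPM with LPS+CCM, against 365, 344 and 293 CPM with LPS alone. The gap between the groups was small, from 288 to 293 CPM. The log2 fold change was -0.28 (SE 0.0758, edgeR adjusted p = 0.0378). The call was lost when total counts replaced TMM scaling and when LPS replicate 1 or 2, or LPS+CCM replicate 2 or 3, was left out, with log2 fold changes of -0.37 to -0.21 over the libraries left out and adjusted p from 1.43e-05 to 1 over all alternatives.

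Cxcl5 measured 5.33, 7.33 and 7.35 CPM with LPS+CCM, against 8.98, 9.95 and 12.8 CPM with LPS alone. The groups did not overlap, and rested on 90 to 318 read pairs per library. The log2 fold change was -0.66 (SE 0.172, a 1.58-fold drop, edgeR adjusted p = 0.0331). It stayed between -0.76 and -0.50 when any single library was left out, but the call was lost without LPS replicate 2 or 3 or any of the LPS+CCM replicates (adjusted p from 0.000213 to 1 over all alternatives). A fit of all 36 libraries together called 0 of the 6 genes in this comparison, with a log2 fold change of -0.66 for Cxcl5 and -0.45 for Cxcl2.

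Cxcl3 did not pass in the main fit, and its change was not tested against those of the other members. It measured 800, 756 and 560 CPM with LPS+CCM in WT, against 762, 757 and 443 CPM with LPS alone, so that the groups overlapped. The log2 fold change was 0.12 (95% interval -0.30 to 0.54, edgeR adjusted p = 0.761). Same-numbered WT libraries of these groups deviated together, and Cxcl3 passed as higher with CCM once replicate number entered the fit as a block, at a log2 fold change of 0.14 (edgeR adjusted p = 0.0344, in a range of 0.0344 to 1 over the alternatives). Without LPS replicate 3 its sign turned, to -0.10.

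Cxcl14 and Cxcl16 did not pass for CCM under LPS. Cxcl14 measured 30.1, 35.5 and 31.7 CPM in WT cells with LPS+CCM, with a log2 fold change of 0.06 (95% interval -0.18 to 0.30). Cxcl16 measured 536, 474 and 525 CPM, each below the 3 LPS libraries, with a log2 fold change of -0.09 (95% interval -0.21 to 0.03, edgeR adjusted p = 0.35). Of all tested genes 30.1% had ranges that did not overlap here. The median log2 fold change over all genes was 0.01.

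In KO cells 0 of 6 passed the edgeR test for CCM under LPS, against 0.112% of all genes (0.00747% higher and 0.105% lower), with 1 (Cxcl3) at an unadjusted p under 0.05 and 0 by DESeq2. Cxcl2 ran from 1335 through 2042 to 2482 CPM with LPS+CCM, overlapping LPS alone, with a log2 fold change of -0.26 (95% interval -0.59 to 0.07, edgeR adjusted p = 0.747). Cxcl1 was at -0.19 (95% interval -0.63 to 0.24) and Cxcl5 at -0.61 (95% interval -1.30 to 0.08). The KO point estimates of these 3 genes had the sign seen in WT, with wider intervals. Without KO replicate 2 they were -0.29 (Cxcl2), -0.27 (Cxcl1) and -0.79 (Cxcl5), and 0 of 6 passed, against 0% of all genes. Without both KO replicates 2 and 6 they were -0.22, -0.23 and -0.61, and 0 of 6 passed, against 0.0667% of all genes. Without KO replicate 6 alone 0 of 6 also passed, against 1.27% of all genes (0.313% higher and 0.953% lower).

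Cxcl3 in KO cells ran from 558 through 733 to 1323 CPM with LPS+CCM, against 553 through 570 to 762 CPM with LPS alone. Log2 ratios of same-numbered libraries ran from 0.01 to 1.12, with the largest in KO replicates 2 and 5. These libraries were not taken as paired, since the correlations of their deviations ran from -0.10 to 0.81. The groups overlapped, and the log2 fold change of 0.50 (95% interval 0.07 to 0.94) did not pass (edgeR adjusted p = 0.512). It was 0.45 without KO replicate 2. Cxcl16 (0.13, 95% interval -0.32 to 0.59) and Cxcl14 (0.08, 95% interval -0.44 to 0.60) had log2 fold changes near 0 with wide intervals.

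**Figure D3:**
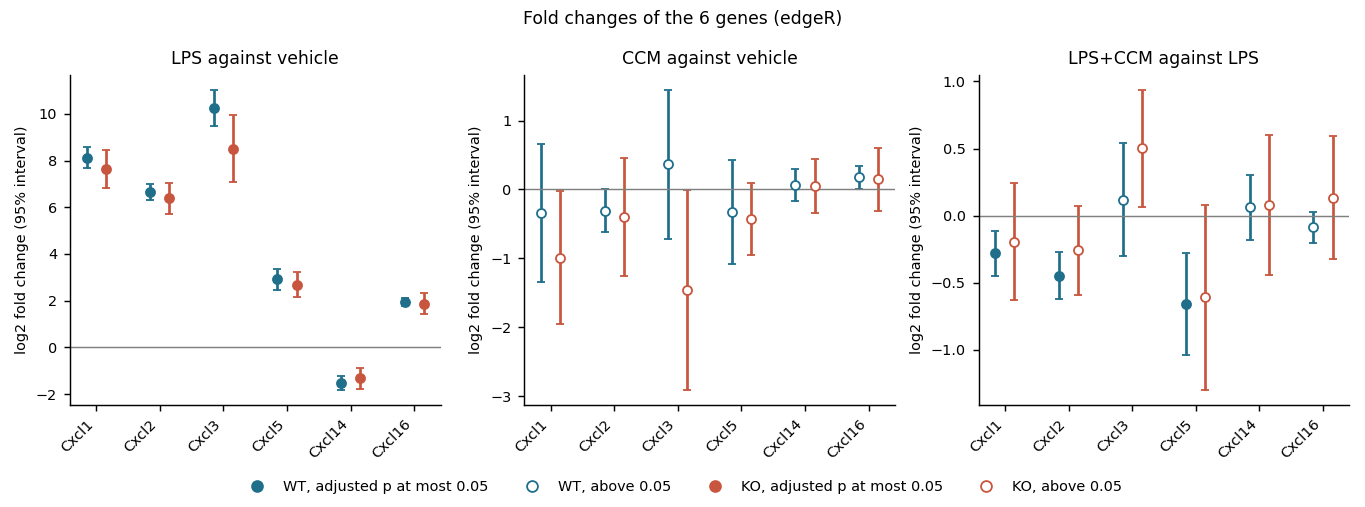
Log2 fold changes of the 6 genes with 95% intervals for LPS against vehicle, CCM against vehicle and LPS+CCM against LPS; blue is WT and red KO, and filled points passed an edgeR adjusted p of 0.05. All points are filled for LPS, no point for CCM alone, and under LPS the WT points of Cxcl1, Cxcl2 and Cxcl5.

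The levels of Cxcl3 and Cxcl2 within a library were then set against each other, since such a ratio does not depend on the scaling between libraries. This ratio was chosen after the values were seen, so it is a description with no test. Per kilobase, Cxcl3 to Cxcl2 was 0.165, 0.168 and 0.115 in the WT LPS libraries and 0.231, 0.262 and 0.180 in the WT LPS+CCM libraries. Every library with CCM lay above every library without it. In KO cells the ratio ran from 0.123 to 0.185 with LPS and from 0.200 to 0.317 with LPS+CCM, again without overlap. Ranges of single genes did not overlap for 30.1% of all tested genes in WT and 1.37% in KO. How often ratios of other gene pairs separate was not tested. Group means were 0.149 ± 0.0302 and 0.224 ± 0.0416 in WT (SD, n = 3), and 0.156 ± 0.0215 and 0.260 ± 0.0567 in KO (SD, n = 6). The ratio of Cxcl1 to Cxcl2 moved less, from 0.144 ± 0.00333 to 0.162 ± 0.00854 in WT, also without overlap, and it overlapped between the KO groups.

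**Figure D4:**
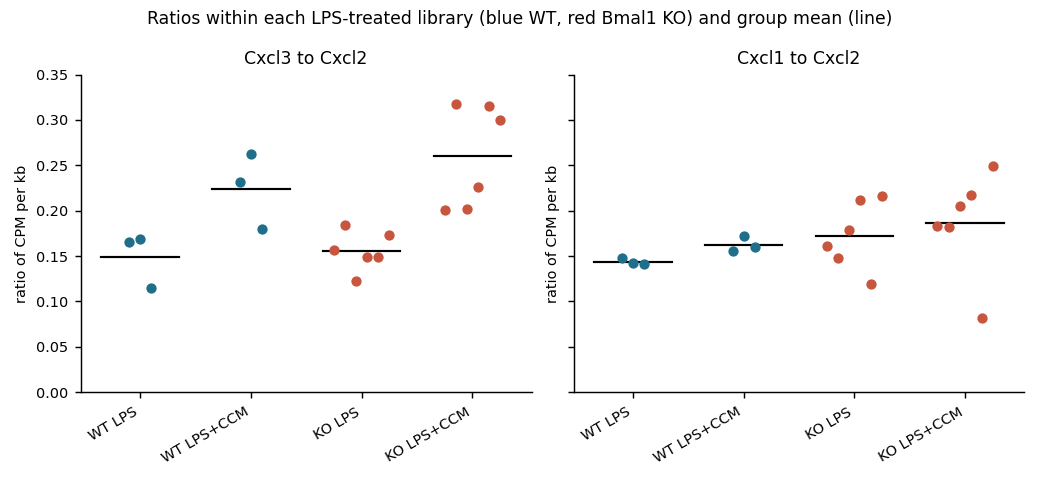
Ratio of Cxcl3 to Cxcl2 (left) and of Cxcl1 to Cxcl2 (right), as CPM per kilobase, in each LPS-treated library; points are libraries and lines group means. The Cxcl3 to Cxcl2 points with CCM lie at 0.180 or above in WT and 0.200 or above in KO, over all points without CCM.

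The makeup of the summed level of the 4 ELR members shifted with the ratio. Cxcl2 made up 89.2 ± 1.11% of the summed level per kilobase of these 4 genes in WT vehicle cells and 77.1 ± 1.88% with LPS (SD, n = 3). With LPS+CCM it made up 72.0 ± 2.45%, while Cxcl3 went from 11.5 ± 2.08% to 16.1 ± 2.47%. Cxcl1 held 11.1 ± 0.201% and 11.7 ± 0.427%, and Cxcl5 0.362 ± 0.114% and 0.290 ± 0.0707%. In KO cells Cxcl2 held 75.1 ± 2.49% with LPS and 69.1 ± 3.05% with LPS+CCM, and Cxcl3 11.7 ± 1.48% and 17.9 ± 3.56% (SD, n = 6). The summed CPM of the 4 genes was 3555 ± 452 with LPS and 2849 ± 252 with LPS+CCM in WT, where the ranges overlapped, and 3279 ± 348 and 3171 ± 720 in KO.

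**Figure D5:**
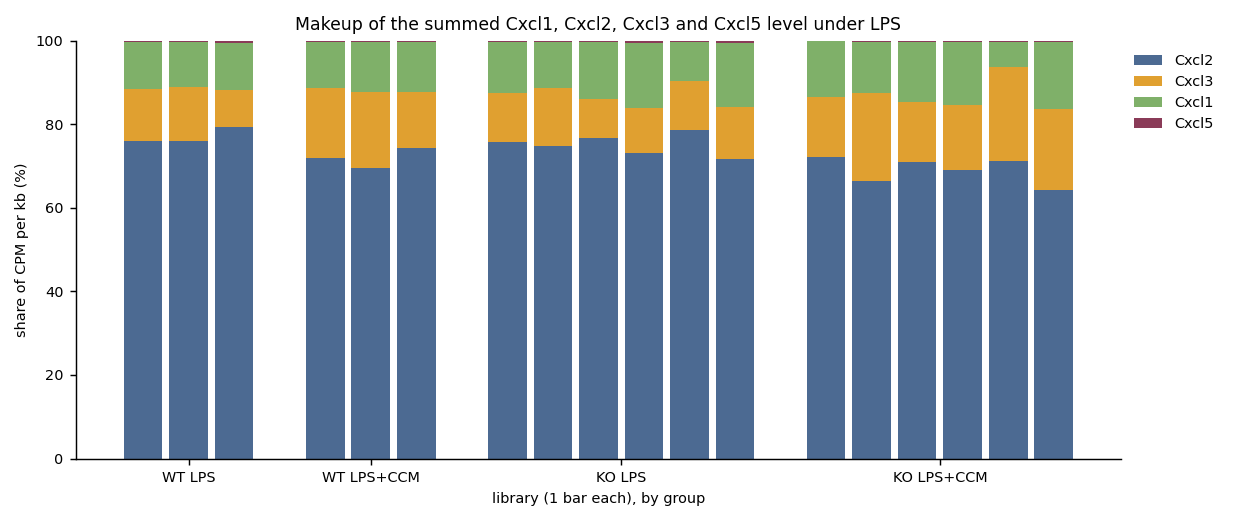
Share of Cxcl2, Cxcl3, Cxcl1 and Cxcl5 in the summed CPM per kilobase of these 4 genes, with 1 stacked bar per LPS-treated library (percent, from 0 to 100). The Cxcl3 segment averages 11.5% (WT) and 11.7% (KO) with LPS and 16.1% and 17.9% with LPS+CCM.

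Genotype itself was tested with vehicle and with LPS. No member passed the edgeR test in either comparison (0 of 6, against 0% of all genes in each), with 0 of 6 at an unadjusted p under 0.05 and 0 by DESeq2 in both. The WT and KO libraries overlapped for each of the 6 genes in both comparisons, while ranges that did not overlap occurred for 1.28% of all genes with vehicle and 1.2% with LPS. Under LPS the log2 fold changes of KO against WT lay between -0.13 and 0.13, with 95% intervals of -0.40 to 0.15 for Cxcl2 and -0.28 to 0.53 for Cxcl1. Those of the others were -0.49 to 0.30 (Cxcl3), -0.59 to 0.60 (Cxcl5), -0.50 to 0.61 (Cxcl14) and -0.30 to 0.57 (Cxcl16). With vehicle the interval for Cxcl3 was wide, -0.34 to 3.77 around 1.72, with the library of KO replicate 2 as the high value, and the log2 fold change was 0.73 without that library. For Cxcl14 the interval was -0.54 to 0.27, and it ran from -0.42 to 1.77 for Cxcl1, -0.62 to 0.95 for Cxcl2, -0.37 to 0.82 for Cxcl5 and -0.27 to 0.66 for Cxcl16. Without both KO replicates 2 and 6, 0 of 6 passed in either comparison, against 0.0349% of all genes with vehicle and 0.0367% with LPS. Cxcl14 with vehicle then had an unadjusted p under 0.05, at a log2 fold change of -0.30 (edgeR adjusted p = 0.999).

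The differences between effects were tested as interactions. The CCM effect under LPS did not pass as different between genotypes for any member (edgeR, 0 of 6 against 0% of all genes, 0 at an unadjusted p under 0.05 and 0 by DESeq2). For Cxcl2 this difference was 0.21 on the log2 scale (95% interval -0.28 to 0.69) and for Cxcl5 0.07 (95% interval -0.98 to 1.11), so that the loss of the calls in KO was not shown to be a loss of the effect. The other 4 differences lay between 0.0295 (Cxcl14) and 0.40 (Cxcl3). The LPS effect gave 0 of 6 between genotypes, against 0% of all genes, also with 0 at an unadjusted p under 0.05 and 0 by DESeq2. Its largest difference was for Cxcl3, at -1.79 (95% interval -3.62 to 0.04), or -0.86 without KO replicate 2, and the other 5 lay between -0.53 (Cxcl1) and 0.21 (Cxcl14). Leaving out KO replicate 2, 6 or both gave 0 of 6 by edgeR in both interactions, with at most 1 at an unadjusted p under 0.05.

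Between CCM with and without LPS, 0 of 6 members differed in WT by edgeR (against 2.09% of all genes, 1.62% lower and 0.468% higher), with 1 at an unadjusted p under 0.05 and 1 by DESeq2, Cxcl16 in both cases. Its difference was -0.28 on the log2 scale (95% interval -0.49 to -0.07, edgeR adjusted p = 0.186, in a range of 0.0388 to 1 over the alternatives), and the other 5 lay between -0.34 (Cxcl5) and 0.0761 (Cxcl1). In KO 0 of 6 differed by edgeR (against 0.00685% of all genes), with 1 at an unadjusted p under 0.05 and 0 by DESeq2. That gene was Cxcl3, at 2.01 (95% interval 0.63 to 3.39, edgeR adjusted p = 1), which became 0.83 without KO replicate 2. The other 5 lay between -0.16 (Cxcl5) and 0.82 (Cxcl1).

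Other genes of the system were read from lists chosen with earlier results of these data known, so their counts are descriptions. Of 9 other CXC ligands, 7 were tested for LPS in WT, where 63% of all genes passed (30.6% higher), and 4 passed, all higher. Among them were the interferon-inducible Cxcr3 ligands Cxcl10 (1.37 ± 0.668 CPM with vehicle and 1347 ± 52.3 with LPS, SD, n = 3) and Cxcl9 (102 ± 11.3 CPM with LPS, at most 3 read pairs per vehicle library). With CCM under LPS, 4 of these 7 fell in WT, against 7.78% of all genes. The log2 fold changes were -1.33 (Cxcl11, SE 0.184), -1.18 (Cxcl10, SE 0.0624), -1.03 (Cxcl9, SE 0.0935) and -0.98 (Ppbp, SE 0.164). Ppbp, the platelet basic protein gene, lies in the chromosome 5 cluster named above. In KO 1 of 6 tested fell, against 0.105% of all genes. This gene was Cxcl10, lower by 1.09 on the log2 scale (SE 0.127, edgeR adjusted p = 0.00536). In KO Cxcl9 (-0.98, SE 0.210, edgeR adjusted p = 0.0961), Cxcl11 (-0.73, SE 0.220) and Ppbp (-0.40, SE 0.347) did not pass. The list's median was -0.98 in WT, against 0.01 over all genes, and -0.57 in KO.

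Of 10 receptor and sheddase genes, 6 were tested for LPS in each genotype and 5 passed, 1 higher and 4 lower. Of all genes 63% passed in WT and 47.1% in KO. In WT, Cxcr2, the receptor of the ELR ligands, fell by 2.06 on the log2 scale (SE 0.207) from 4.48 ± 0.469 CPM (SD, n = 3). Cxcr4 fell by 4.52 (SE 0.112) and Cxcr3 fell by 1.996 (SE 0.237). Of the 2 proteases that release Cxcl16, Adam17 rose by 1.45 (SE 0.0562) and Adam10 fell by 0.88 (SE 0.0626), while Cxcr6, the Cxcl16 receptor, did not pass at 1.14 ± 0.0994 CPM with LPS. In KO the same 5 genes passed in the same directions, with Adam17 at 1.30 (SE 0.196) and Cxcr2 at -2.05 (SE 0.309). In the same comparison 6 of 9 tested neutrophil genes passed as lower in WT and 3 as higher, against 32.4% and 30.6% of all genes. Among the lower were Retnlg (-5.55), Elane (-2.41) and Mpo (-2.38). In KO 4 of 9 neutrophil genes passed as lower and 2 as higher, against 24.7% and 22.4% of all genes. The part of such cells in the Cxcr2 values was not tested. The receptor list's median log2 fold change was -1.44 in WT and -1.38 in KO. For CCM 0 of 6 or 7 tested receptor and sheddase genes passed by edgeR in any of the 4 CCM comparisons. Of all genes 11.9% passed under LPS in WT and at most 0.112% in the other comparisons. At an unadjusted p under 0.05 the list held 4 genes for CCM alone in WT and 1 in KO, and under LPS 1 in WT and 0 in KO.

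Of 33 genes from TLR4 to NF-kB, 27 rose and 3 fell with LPS in WT, where 30.6% of all genes rose and 32.4% fell, with a median log2 fold change of 1.14, led by Nfkb2 (4.08, SE 0.0634), Nfkbiz (3.98, SE 0.128) and the signalling inhibitor Irak3 (3.83, SE 0.0693). In KO 23 rose and 2 fell, against 22.4% and 24.7% of all genes, and the list's median was 1.05. With CCM under LPS, 9 of 33 fell in WT, against 7.78% of all genes, among them Nfkb2 (-0.41, SE 0.0458), Irak2 (-0.40, SE 0.0807) and Rel (-0.40, SE 0.0706), although the list's median was -0.02. In KO 0 of the 33 passed by edgeR, and 1 had an unadjusted p under 0.05, with a median of -0.0693 and values of -0.34 (Nfkb2), -0.39 (Irak2) and -0.49 (Rel). Of 12 genes that control the decay of cytokine mRNA, 6 rose and 3 fell with LPS in WT, including the rise of the RNase gene Zc3h12a (3.08, SE 0.0900) and the fall of Zfp36l2 (-2.08, SE 0.0636), and 5 rose and 2 fell in KO, while 63% and 47.1% of all genes passed in these comparisons. With CCM under LPS 1 of 12 fell in WT, the kinase gene Mapkapk2 (-0.22, SE 0.0408), against 7.78% of all genes, and the list's median was -0.06.

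The genes most like each member were ranked by Pearson's r of log2 CPM over the 36 libraries, among 15714 genes. These r values mostly reflect the split by LPS, which all libraries share, and are descriptions. They named the interferon-inducible Zbp1 for Cxcl1 (0.996), Aoah, which deactivates LPS, for Cxcl2 (0.996), Il1b for Cxcl3 (0.996), Gstt4 for Cxcl5 (0.964), the centromere gene Cenpa for Cxcl14 (0.980) and Prdx5 for Cxcl16 (0.996). After the 8 group means were removed, what remained was the variation among replicates. Cxcl3 was then most like the cytokine genes Il1b (r = 0.851) and Il12b (0.809), with r of 0.899 and 0.891 without KO replicate 6, where Clec4e had 0.903. Cxcl14 was most like the mitotic genes Cdca8 (0.934), Birc5 (0.920) and Kifc1 (0.914), with r of 0.877, 0.844 and 0.886 without KO replicate 6, where genes were not ranked again. Cxcl2 was most like Rnd3 (0.873) and the kinase gene Pim3 (0.867), Cxcl16 like the lysosomal Npc2 (0.97), Cxcl1 like Lad1 (0.724) and Cxcl5 like the histone gene Hist1h1c (0.678). Among the members, Cxcl1 and Cxcl3 varied together across replicates (r = 0.659, and 0.695 without KO replicate 6). No r is given here without KO replicate 2, whose label is in doubt. Its vehicle library held the highest Cxcl1 and Cxcl3 (5.80 CPM) of its group, and its part in these r values was not tested. The r of Cxcl14 with Cxcl16 was 0.616 with KO replicate 6 and 0.112 without it.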

How the data were processed

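Poly(A) RNA of BMDMs was sequenced as paired ends. Per the labels, the authors trimmed reads with fastp, aligned them to mm10 with HISAT2 2.0.5 and used featureCounts 1.5.0-p3 to assign read pairs to genes. The deposited values used here are these raw counts, whole numbers for 54532 genes in 36 columns, and 0 columns were left out. Other deposited values (FPKM) were not used.

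Samples were grouped by the genotype and treatment in their titles. For each comparison, only the groups compared entered a fit in edgeR 4.0.16 in R 4.3.3 (filterByExpr, TMM, glmQLFit, glmQLFTest, two-sided), and p-values were adjusted by Benjamini-Hochberg over all genes tested, with a threshold of 0.05. Interactions were terms of fits on the groups concerned. CPM were TMM-scaled over all libraries, log2 CPM had a prior count of 2, and levels between genes were divided by the deposited gene length. Totals were 13469262 to 28288923 read pairs per library. Counting error adds to the spread between replicates for Cxcl1, Cxcl3 and Cxcl5 without LPS, which rest on few read pairs.

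Alternatives were DESeq2 1.42.0, other scalings, no filter beyond 1 count, a replicate block, 1 fit of all libraries and leaving out replicates. Leaving out KO replicates 2 and 6 together was chosen after seeing the data. Same-numbered libraries were taken as paired where their deviations from group means correlated at over 0.1 in every pair, which held for LPS in KO (0.298 to 0.830), CCM alone in KO (0.337 to 0.844) and CCM under LPS in WT (0.151 to 0.360). The correlations came from the data, and the labels do not name the animals.

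The 6 members and the gene lists were chosen with earlier results of these data known. All members were named in every comparison, up to 3 called genes per direction of each list by size of change where their levels allow a fold, every tested receptor, and per member the genes of highest correlation. RefSeq promoter windows were searched with Python 3.11.15 on both strands.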

Additional observations from a re-analysis of the deposited data

Results flagged for a closer look

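In 24 groups of 6 KO libraries (6 genes in 4 treatments), 8 held a library far from the rest by Dixon's criterion, which chance gives for about 1 group in 20. The groups of 3 WT libraries were not tested. Cxcl16 stood apart in KO replicate 6 with vehicle (236 CPM, next 161), with CCM (280 CPM, next 168) and with LPS (869 CPM, next 597). Cxcl3 stood apart in KO replicate 2 with vehicle (5.80 CPM, next 1.41) and with LPS (762 CPM, next 609). With CCM alone KO replicate 4 was high in both Cxcl1 (2.19 CPM, next 0.770) and Cxcl3 (1.36 CPM, next 0.550). Cxcl5 was high in KO vehicle replicate 5 (2.46 CPM, next 1.67). The sum of the 10 neutrophil genes in KO replicate 6 was 1192 CPM with vehicle, 1219 with CCM and 1327 with LPS. The sum of the 7 macrophage genes in KO replicate 2 was the highest of its KO group in all 4 treatments, from 16894 CPM (LPS) to 19982 CPM (LPS+CCM). Of these sums Lyz2 alone gave 11052 CPM (LPS) and 14686 CPM (LPS+CCM). The part of neutrophils and macrophages in the values was not tested.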

How the results depend on the processing

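All 6 calls for LPS held in both genotypes under every alternative run, and no member passed in any alternative for CCM alone or for genotype. The sizes of the LPS changes moved over these alternatives. In WT the log2 fold change ran from -1.92 to -1.39 for Cxcl14 and from 1.52 to 2.03 for Cxcl16. For CCM under LPS in WT, 3 members passed, 0 in 1 fit of all 36 libraries, 2 with total counts alone (without Cxcl1), 4 with the replicate block (with Cxcl3 higher) and between 1 and 2 when a replicate was left out, where Cxcl2 always passed. For the difference of the CCM effect with and without LPS in WT, DESeq2 called 1 member (Cxcl16, -0.30). The cause was not tested. The replicate block changed no other call.

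Signs turned for small differences that did not pass. For KO against WT these were Cxcl16 with vehicle (-0.00359 with the block), Cxcl5 with LPS (-0.0368 with total counts, -0.0165 without the filter, -0.401 with the block, -0.000744 in 1 fit of all libraries), Cxcl14 with LPS (-0.00705 with total counts, -0.286 with the block, -0.14 without KO replicates 2 and 6) and Cxcl16 with LPS (-0.0305 without KO replicates 2 and 6). WT and KO numbers were not taken as pairs, so the block values of KO against WT have no meaning as a paired result. For the LPS by CCM interaction these were Cxcl14 in WT (0.0795 with total counts, 0.0120 with upper-quartile scaling) and Cxcl16 in KO (-0.0399 with DESeq2, -0.0406 with RLE). For the genotype by CCM interaction these were Cxcl5 (-0.00541 with total counts, -0.000811 with the block) and Cxcl14 (-0.0340 with total counts).

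When a replicate was left out, signs also turned within these ranges. For CCM alone in WT they were -0.85 to 0.0948 (Cxcl1) and -0.0515 to 0.13 (Cxcl14), and for CCM under LPS in WT -0.10 to 0.26 (Cxcl3) and -0.0567 to 0.15 (Cxcl14). For KO against WT they were -0.0167 to 0.33 (Cxcl2) with vehicle, and with LPS -0.31 to 0.0349 (Cxcl3), -0.19 to 0.16 (Cxcl5), -0.14 to 0.14 (Cxcl14) and -0.0315 to 0.19 (Cxcl16). For the LPS by CCM interaction they were -0.0308 to 0.19 (Cxcl1), -0.94 to 0.0717 (Cxcl3) and -0.19 to 0.13 (Cxcl14) in WT, and -0.49 to 0.14 (Cxcl5), -0.0429 to 0.14 (Cxcl14) and -0.0723 to 0.0656 (Cxcl16) in KO. For genotype by CCM they were -0.17 to 0.26 (Cxcl5) and -0.0402 to 0.11 (Cxcl14), and for genotype by LPS -0.10 to 0.0196 (Cxcl16).

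At these depths Cxcl1, Cxcl3 and Cxcl5 without LPS rest on few read pairs, and their intervals for CCM alone are wide.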
